A study of Mus musculus with 10 samples.

Results

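The pentose phosphate pathway and the cytosolic NADPH enzymes were represented by 9 genes, G6pdx, Pgd, Pgls, Tkt, Taldo1, Rpia, Rpe, Me1 and Idh1. The genes were chosen by name for what their enzymes do, with earlier results of these data known. All 9 were found among the 53465 genes of the count table, and all 9 passed the filter on low counts that left 14110 genes for testing. Me1 passed it only through the libraries in which it was highest. RNA sequencing had been done on 10 libraries of erythroblasts, the nucleated precursors of red blood cells, taken from spleens of C57BL/6 mice 11 days after 5-FU, a drug that kills dividing blood precursors and is followed by a burst of new red cell production. Each of the 4 genotypes had received the drug. They were the double-null (n = 3), which lacks both the miR-144/451 microRNA cluster and the transcription factor Nrf2, the miR-144/451-null (n = 2), the Nrf2-null (n = 3) and the wild type (n = 2). The labels used here give neither the age of the mice nor which mouse gave which library, so the p-values rest on the spread between libraries of a genotype, which may be technical.

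Libraries held 13087827 to 15131036 counts. Mir144 had 0 counts in each double-null and miR-144/451-null library, against 9 to 16 counts in Nrf2-null and 12 to 17 in wild type libraries. Mir451a had 0 counts in every library, wild type included, and so checks nothing. Nfe2l2, the gene of Nrf2, averaged 54.9 ± 6.99 CPM in double-null (SD, n = 3), 83.9 ± 3.17 CPM in miR-144/451-null (n = 2), 50.6 ± 4.78 CPM in Nrf2-null (n = 3) and 60.8 ± 3.80 CPM in wild type libraries (n = 2). Its RNA was thus still counted in the libraries labelled as lacking Nrf2, and counts over the whole gene do not check its deletion. Judged by Xist and Y-linked RNA, 3 libraries were female (1 double-null and both wild type) and 7 male, so a difference between a single null and wild type cannot be told apart from a difference between males and females. The 12 erythroid markers summed to between 79850 and 136900 CPM (counts per library total, with TMM scaling) in every library.

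The pathway draws on glucose phosphate in the cytosol. In its oxidative branch G6pdx catalyses the entry step, which limits the flow and reduces NADP to NADPH, Pgls opens the lactone that results, and Pgd makes a further NADPH while releasing ribulose phosphate. In the non-oxidative branch Rpia and Rpe interconvert the pentose phosphates, and Tkt and Taldo1 shuffle carbon units between sugar phosphates and so link the pathway back to glycolysis. Me1, malic enzyme, and Idh1, isocitrate dehydrogenase, make NADPH in the cytosol without the pathway. Red cells depend on this NADPH to keep glutathione reduced, and inherited lack of the human counterpart of G6pdx causes haemolytic anaemia. Nrf2 is known from mouse and human cells to raise transcription of several of these genes, G6pdx, Pgd, Tkt, Taldo1 and Me1 among them, and miR-144 has been reported to repress the Nrf2 message in human erythroid cells.

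The mature microRNAs of the cluster are shown because their loss defines the cluster-null genotypes. Both are encoded on chromosome 11, the sequences are from RefSeq (GRCm38.p6), and capitals mark the seed, bases 2 to 8 from the 5′ end.
mmu-miR-144-3p: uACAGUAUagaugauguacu
mmu-miR-451a: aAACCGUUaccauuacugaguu
For each gene the longest 3′ UTR in the annotation was searched for the 7 bases that pair with either seed, ATACTGT for miR-144-3p and AACGGTT for miR-451a. None of the 9 genes had the miR-144-3p match, which 13.85% of 11737 tested genes with a UTR carried. Me1 had a single match to the miR-451a seed, starting at base 1228 of its 1366-base 3′ UTR, and the other 8 genes had none, where 2.22% of the tested genes carried one. The Me1 match is shown with its flanks, the matching bases in capitals.
Me1 3′ UTR, chromosome 9: acttgtgactAACGGTTtcttcagtgt

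Promoters were searched on both strands for TGACNNNGC, the core letters of the element bound by Nrf2 with small Maf proteins. RefSeq windows of 300 bases, 250 before to 50 after each gene start (GRCm38.p6), existed for all 9 genes. The letters stood in at least 1 window of G6pdx, Pgd and Me1, which is 3 of 9 genes, and in a window of 14.0% of all 27025 genes. The Me1 copy, TGACTCAGC, lay on the strand of the gene with its first base 6 bases upstream of the start, and its first letters, TGACTCA, are also those of the AP-1 element. The G6pdx copy, TGACTGAGC on the opposite strand and so printed as GCTCAGTCA, began 57 bases upstream. The Pgd copy, TGACATTGC, began inside the transcribed part of 1 of that gene's windows. Tkt, Taldo1, Rpia, Rpe, Pgls and Idh1 held no copy of these letters in these windows. The Me1 and G6pdx windows are shown from 200 bases before the start to 20 after it, on the strand of the gene, with the match in capitals.
Me1 promoter, chr9:86695895-86696114, minus strand: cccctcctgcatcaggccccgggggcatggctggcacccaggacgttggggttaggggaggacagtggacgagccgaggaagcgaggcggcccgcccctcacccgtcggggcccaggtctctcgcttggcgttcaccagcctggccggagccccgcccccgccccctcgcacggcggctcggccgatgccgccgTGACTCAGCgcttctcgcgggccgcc
G6pdx promoter, chrX:74428861-74429080, minus strand: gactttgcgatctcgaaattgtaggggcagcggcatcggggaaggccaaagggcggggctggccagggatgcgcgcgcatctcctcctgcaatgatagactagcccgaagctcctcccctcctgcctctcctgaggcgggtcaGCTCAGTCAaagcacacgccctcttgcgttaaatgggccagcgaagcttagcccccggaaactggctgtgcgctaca

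Levels between genes were compared per length, on the deposited FPKM values. Taldo1 had the highest FPKM of the set, with a mean of 192 over the 10 libraries (118.9 to 265), above 98.7% of the tested genes. Tkt came next at 50.5 (28.1 to 71.9), then G6pdx at 20.7 (8.39 to 31.6). Rpe at 11.4, Pgd at 9.80, Rpia at 8.01 and Pgls at 5.43 followed, and the ranges of each neighbouring pair among them overlapped. Idh1 stood at 2.77 FPKM (1.91 to 5.83), above 46.3% of the tested genes. Me1 was the lowest at 0.163 FPKM (0 to 0.522), above 4.4% of the tested genes. Neither the Taldo1 range and the Tkt range nor the Idh1 range and the Me1 range overlapped, so these steps of the order were larger than the spread over all libraries, while Tkt and G6pdx overlapped at their edges.

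**Figure D1:**
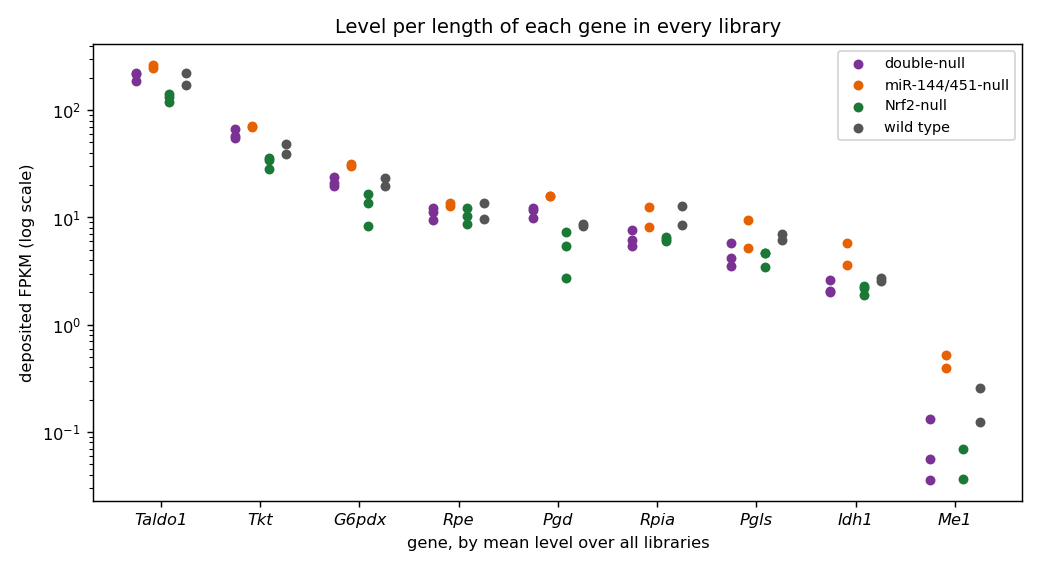
Deposited FPKM (log scale) of each of the 9 genes, ordered by their mean over all libraries, with 1 point for each library coloured by genotype. Taldo1 lies between 118.9 and 265 FPKM in every library and Me1 at or below 0.522, and the Nrf2-null library in which Me1 is listed at 0 has no point on the log axis.

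With the cluster lost and Nrf2 absent, RNA of both NADPH-making enzymes of the oxidative branch and of both carbon-shuffling enzymes of the other branch was higher. In double-null against Nrf2-null libraries, a comparison of cluster loss where Nrf2 is absent, 4 of 9 genes passed the threshold (Benjamini-Hochberg adjusted p under 0.05 in edgeR's quasi-likelihood test), all 4 higher in double-null: G6pdx, Pgd, Tkt and Taldo1. None of the 9 was lower. Over all tested genes 14.4% passed as higher and 12.9% as lower in that comparison. The median log2 fold change of the 9 genes was 0.67, against 0.020 over all tested genes. In miR-144/451-null against wild type, where Nrf2 is present, Tkt alone passed, as higher, with 2.4% of all genes passing as higher and 2.23% as lower. There the median of the 9 genes was 0.39, against 0.024 over all tested genes.

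Loss of Nrf2 gave a negative log2 fold change for every gene, and edgeR's test called none of them. In double-null against miR-144/451-null libraries 0 of 9 genes passed in edgeR's test, against 0.0638% of all genes. DESeq2 also called 0. In edgeR 3 genes (Rpia, Me1 and Idh1) were lower at an unadjusted p under 0.05, against 5.87% of all genes. In Nrf2-null against wild type 0 of 9 passed in edgeR's test, against 0.191% of all genes, and DESeq2 called 0. There 6 genes were lower at an unadjusted p under 0.05 in edgeR, against 6.92% of all genes. Averaged over both states of the cluster, the effect of Nrf2 loss was again called for 0 of 9 genes, against 0.588% of all genes. Of the 9 genes, 6 were lower at an unadjusted p under 0.05, against 10.9% of all genes. DESeq2 called Rpia and Me1 in that contrast, among 545 genes in all. But Me1 had entered the test only through libraries that keep Nrf2, so its value in each contrast of Nrf2 loss was partly fixed by the filter. Me1 is part of each count of lower genes above. It adds no evidence to those counts, or to the signs and medians below. All 9 log2 fold changes were negative in double-null against miR-144/451-null and in Nrf2-null against wild type, with medians of -0.32 and -0.53. Of all tested genes, 52.4% and 52.1% were negative there. The averaged contrast uses the same libraries and is the mean of these comparisons. Its 9 negative signs thus follow from theirs and are no further evidence. Its median was -0.49, where 52.4% of all tested genes were negative. The signs of Tkt, Taldo1 and Rpe turned when single libraries were left out, and that of Rpe also turned with a term for sex. Whether the effect of cluster loss differed with and without Nrf2 was tested as an interaction: 0 of 9 genes passed in edgeR's test, 0 had an unadjusted p under 0.05, DESeq2 called 0, and 0.0638% of all genes passed in edgeR. The calls made in only 1 of the cluster comparisons are not shown to differ from the other.

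**Figure D2:**
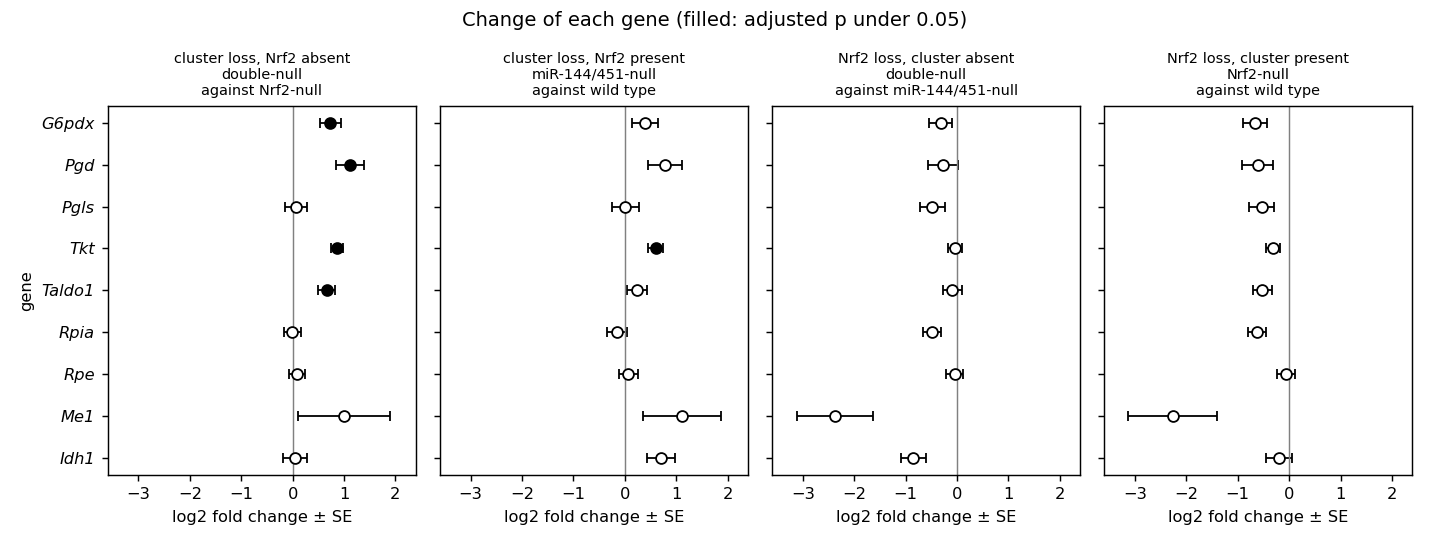
Log2 fold change ± SE of each gene from the edgeR fit in 4 comparisons, with filled points for an adjusted p under 0.05. G6pdx, Pgd, Tkt and Taldo1 are filled in double-null against Nrf2-null, Tkt is filled for miR-144/451-null over wild type, and no point is filled in the 2 comparisons of Nrf2 loss.

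Within a gene, libraries were compared as CPM scaled with TMM factors. G6pdx, which sets the flow into the pathway, had 70.0, 62.8 and 72.8 CPM in the double-null libraries and 88.4 and 82.5 CPM in the miR-144/451-null libraries. It had 42.5, 52.85 and 28.2 CPM in the Nrf2-null libraries and 54.0 and 76.5 CPM in the wild type libraries. The double-null and Nrf2-null libraries did not overlap, and wild type replicate 3 lay above every double-null library. In double-null against wild type the log2 fold change of G6pdx was 0.07 ± 0.23 (adjusted p = 0.858, edgeR). G6pdx rose in double-null against Nrf2-null, with a log2 fold change of 0.74 ± 0.21 (SE, adjusted p = 0.0246, edgeR). It was 0.39 ± 0.25 (adjusted p = 0.473) for miR-144/451-null over wild type, and -0.66 ± 0.23 (adjusted p = 0.352) in Nrf2-null against wild type. The call was lost without Nrf2-null replicate 1 (0.76, adjusted p = 0.0633), Nrf2-null replicate 3 (0.52, 0.0575), double-null replicate 1 (0.72, 0.0592) or double-null replicate 3 (0.72, 0.0521), and with a term for sex (0.69, 0.0718). Of the 31-base stretches of its transcripts, 12.6% also occur in G6pd2, a near copy with 0 counts in all libraries.

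Pgd makes the second NADPH of the oxidative branch. It had 69.2, 83.1 and 75.5 CPM in double-null, 96.6 and 87.1 CPM in miR-144/451-null, 35.7, 49.5 and 19.4 CPM in Nrf2-null, and 47.65 and 59.2 CPM in wild type libraries. All 5 cluster-null libraries lay above all 5 libraries that keep the cluster. The lowest was Nrf2-null replicate 3, which was also the lowest for G6pdx. Pgd rose in double-null against Nrf2-null by 1.12 ± 0.27 on the log2 scale (adjusted p = 0.0132, edgeR), a 2.18-fold difference and the largest among the called genes of the set. The value was 0.83 (adjusted p = 0.00845) without Nrf2-null replicate 3 and 1.46 (adjusted p = 0.00323) without Nrf2-null replicate 2. In miR-144/451-null against wild type it was 0.78 ± 0.33 with an adjusted p of 0.236, which turned to 0.0406 without Nrf2-null replicate 3.

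Pgls, the lactonase between these enzymes, passed in no comparison. It had 14.5, 16.4 and 21.9 CPM in double-null, 18.5 and 30.45 CPM in miR-144/451-null, 18.0, 18.3 and 14.15 CPM in Nrf2-null, and 23.9 and 24.8 CPM in wild type libraries. Both wild type libraries lay above all 6 libraries without Nrf2, and the miR-144/451-null libraries fell on either side of them. Its log2 fold change was 0.07 ± 0.22 (adjusted p = 0.851) in double-null against Nrf2-null and -0.53 ± 0.24 (adjusted p = 0.408) in Nrf2-null against wild type. With Nrf2 loss averaged over both states of the cluster it was -0.51 ± 0.17 (adjusted p = 0.174). Transcripts of Pgls share 19.53% of their 31-base stretches with Fam129c, which had 16 to 251 counts, and the strand setting of the counting is not given, so reads of the overlap could not be assigned.

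**Figure D3:**
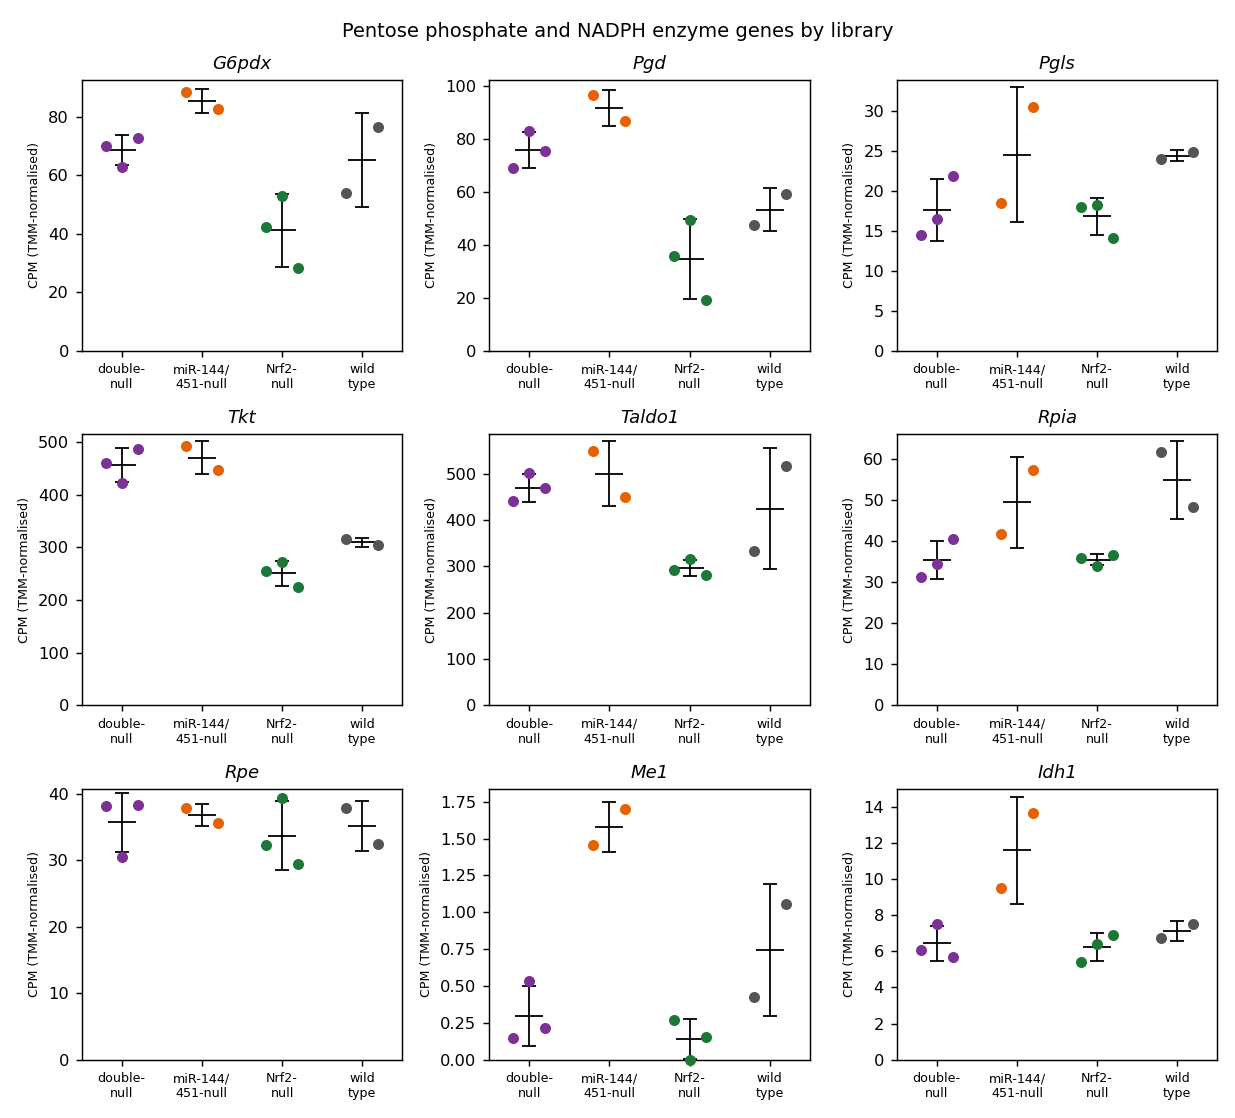
TMM-scaled CPM of each of the 9 genes by genotype, with 1 point for each library and the mean ± SD as bars (n = 3 double-null, 2 miR-144/451-null, 3 Nrf2-null and 2 wild type). Pgd and Tkt lie higher in all 5 cluster-null libraries than in the other 5, Rpe lies between 29.4 and 39.4 CPM in every library, and Me1 and Idh1 are highest in the miR-144/451-null libraries.

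In the non-oxidative branch, Tkt had the smallest adjusted p of the set. Transketolase RNA reached 459.6, 423 and 487 CPM in double-null and 492 and 448 CPM in miR-144/451-null libraries. Nrf2-null libraries had 255, 272 and 225 CPM, and wild type libraries 316 and 304 CPM. The cluster-null libraries did not overlap with those that keep the cluster, and among the libraries that keep it the Nrf2-null ones lay below both wild type ones. Tkt rose in double-null against Nrf2-null by 0.86 ± 0.12 on the log2 scale (adjusted p = 0.000668, edgeR), a 1.82-fold difference. Against wild type, Tkt was higher in miR-144/451-null by 0.60 ± 0.15 (adjusted p = 0.0472), and higher in double-null by 0.56 ± 0.14 (adjusted p = 0.0202). The interaction was 0.26 ± 0.19 (adjusted p = 0.9986).

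The Tkt call in double-null against Nrf2-null was kept under all alternatives tried. That in miR-144/451-null against wild type was kept without Nrf2-null replicate 3 (adjusted p = 0.0471) or double-null replicate 3 (0.0426). It was lost without any other single library, with adjusted p from 0.0542 without double-null replicate 2 to 0.221 without wild type replicate 3 and log2 fold changes of 0.54 to 0.69. It was also lost with DESeq2 size factors (0.59, adjusted p = 0.0744), in a fit of these genotypes alone (0.62, 0.172) and with a term for sex (0.74, 0.312). In double-null against wild type the call was lost without wild type replicate 1 (0.61, adjusted p = 0.108) or wild type replicate 3 (0.53, 0.1145), without scaling factors (0.46, 0.0558) and with a term for sex (0.65, 0.0749).

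Taldo1, transaldolase, works with Tkt and is the most abundant of the set per length. It had 440.4, 501 and 469 CPM in double-null, 550.1 and 451 CPM in miR-144/451-null, 291, 316.5 and 281 CPM in Nrf2-null, and 332.5 and 517 CPM in wild type libraries. The 3 Nrf2-null libraries were the lowest, and the wild type libraries differed from each other by more than the double-null libraries did. Taldo1 rose in double-null against Nrf2-null by 0.67 ± 0.17 on the log2 scale (adjusted p = 0.0133, edgeR), a 1.59-fold difference. In miR-144/451-null against wild type it was 0.24 ± 0.20 (adjusted p = 0.608), with a range of -0.039 to 0.60 when single libraries were left out. In Nrf2-null against wild type it was -0.52 ± 0.18 (adjusted p = 0.357), with -0.17 without wild type replicate 3 and -0.78 without wild type replicate 1. Its transcripts share 13.79% of 31-base stretches with Gm17823, which had at most 5 counts in a library.

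Rpia supplies ribose phosphate for nucleotides. It had 31.4, 34.4 and 40.5 CPM in double-null, 41.7 and 57.3 CPM in miR-144/451-null, 36.0, 34.0 and 36.6 CPM in Nrf2-null, and 61.6 and 48.2 CPM in wild type libraries. All 6 libraries without Nrf2 lay below all 4 libraries with it. Rpia was lower in double-null than in wild type, at 0.645 of the wild type level, a log2 fold change of -0.63 ± 0.18 (adjusted p = 0.0310, edgeR). That comparison called 2 of the 9 genes, Tkt as higher and Rpia as lower, where 8.26% of all genes passed as higher and 8.95% as lower. Double-null against Nrf2-null gave Rpia a log2 fold change of -0.0035 ± 0.16 (adjusted p = 0.990), whose sign turned positive without scaling factors, without the filter and without globin genes. For Nrf2 loss averaged over both states of the cluster it was -0.56 ± 0.12 (adjusted p = 0.0865), with an adjusted p of 0.0282 without miR-144/451-null replicate 1. The call against wild type was lost without wild type replicate 1 (-0.42, adjusted p = 0.269), wild type replicate 3 (-0.79, 0.0573), double-null replicate 1 (-0.55, 0.0933) or double-null replicate 2 (-0.61, 0.0652), and also in a fit of these genotypes alone (-0.61, 0.0541) and with a term for sex (-0.44, 0.297).

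Rpe, the epimerase that feeds Tkt, passed in no comparison. It averaged 35.7 ± 4.48 CPM in double-null (SD, n = 3), 36.8 ± 1.61 CPM in miR-144/451-null (n = 2), 33.7 ± 5.14 CPM in Nrf2-null (n = 3) and 35.2 ± 3.81 CPM in wild type libraries (n = 2). The means differed by less than the spread between the Nrf2-null libraries, and the ranges of all 4 genotypes overlapped. In double-null against Nrf2-null its log2 fold change was 0.08 ± 0.15 (adjusted p = 0.714), and in Nrf2-null against wild type -0.06 ± 0.17 (adjusted p = 0.903).

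Of the NADPH enzymes outside the pathway, Me1 was close to the detection limit. Its counts were 2, 7 and 3 in double-null, 20 and 29 in miR-144/451-null, 4, 0 and 2 in Nrf2-null, and 7 and 13 in wild type libraries. The miR-144/451-null libraries were the highest, and those of both genotypes without Nrf2 held at most 7 counts. In double-null against miR-144/451-null the fitted log2 fold change was -2.38 ± 0.74 (adjusted p = 0.326), and in Nrf2-null against wild type -2.26 ± 0.87 (adjusted p = 0.366). The gene passed the filter only through libraries that keep Nrf2, both miR-144/451-null libraries and wild type replicate 3. A lower value without Nrf2, in either comparison, is thus no evidence of a change. For cluster loss where Nrf2 is absent the log2 fold change was 1.00 ± 0.89 (adjusted p = 0.430). Leaving out single libraries moved this value between 0.33 without double-null replicate 2 and 1.85 without Nrf2-null replicate 1, with 0.46 without Nrf2-null replicate 2. The Nrf2-null against wild type value moved between -3.11 without Nrf2-null replicate 1 and -1.51 without wild type replicate 3. Fitted values at such counts depend on the prior count, and 30.0% of the 31-base stretches of its transcripts occur in other genes, mostly in Gm7049 with 0 counts. The miR-451a seed match and the TGACTCAGC of Me1 shown above thus belong to the gene with the fewest counts.

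Idh1 had 6.10, 7.52 and 5.69 CPM in double-null, 9.49 and 13.7 CPM in miR-144/451-null, 5.38, 6.39 and 6.89 CPM in Nrf2-null and 6.74 and 7.49 CPM in wild type libraries. As for Me1, the miR-144/451-null libraries were the highest. The other 3 genotypes overlapped with each other and lay below both miR-144/451-null libraries. No comparison passed: the log2 fold change was 0.70 ± 0.28 (adjusted p = 0.192) for miR-144/451-null over wild type and -0.85 ± 0.25 (adjusted p = 0.305) in double-null against miR-144/451-null. Cluster loss where Nrf2 is absent gave 0.05 ± 0.23 (adjusted p = 0.894), and the interaction was -0.65 ± 0.36 (adjusted p = 0.9986), the most negative of the 9.

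Over the 10 libraries, G6pdx and Pgd followed each other most closely of any pair of the 9 (Pearson r = 0.955 of log2 CPM), with Pgd and Tkt at 0.905. Pgls was most like Rpia (0.863), and Tkt and Rpia were nearly unrelated (0.085). Among 8409 other tested genes with a mean of at least 5 CPM, Tkt was most like Uqcrc2 (0.994), a subunit of respiratory complex III, Nf2 (0.991) and Atp5g2 (0.990), a subunit of ATP synthase. G6pdx was most like Psma5, Unc50 and Blmh (0.967 to 0.969), and Pgd most like Etfrf1, Mrps34 and Prdx6 (0.974 to 0.979), the last a peroxiredoxin. Taldo1 was most like Plxnc1 (0.968) and the proteasome genes Psma2 and Psmc5, and Rpia most like Lrrc14, Pwp2 and Gne (0.932 to 0.951). These values describe 10 libraries that fall into genotypes and share depth and scaling, and no test was made of them.

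Genes around the pathway were read from lists. Of 13 other pentose phosphate genes, 10 were tested, and in double-null against Nrf2-null 1 was higher and 0 lower, no larger a share than the 14.4% and 12.9% of all genes. The higher gene was Dera, an aldolase that splits deoxyribose phosphate, with 28.0, 25.6 and 26.5 CPM in double-null against 12.6, 13.5 and 8.42 CPM in Nrf2-null libraries. Its log2 fold change was 1.22 ± 0.19 (adjusted p = 0.00105, edgeR), and its groups did not overlap. No other comparison called a gene of this list, which also holds the phosphoribosyl pyrophosphate synthetases. Of 13 other NADPH sources and NAD kinases, 11 were tested, and Mthfd1l was lower in double-null, both against Nrf2-null (-0.44 ± 0.12, adjusted p = 0.0209) and against wild type (-0.66 ± 0.13, adjusted p = 0.0084). It was the 1 call of the list in each comparison, where 12.9% and 8.95% of all genes passed as lower, so the list's share was near or under these. Mthfd1l is a mitochondrial formate-making enzyme of folate metabolism whose own reaction yields no NADPH.

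A list of 20 enzymes, most of which use NADPH or electrons from it, was tested in full. Double-null libraries had 1 higher and 3 lower against Nrf2-null libraries, close to or under the 14.4% and 12.9% of all genes. The higher gene was Akr1a1, an aldehyde reductase, with 116 ± 11.9 CPM in double-null (SD, n = 3) and 72.5 ± 3.19 CPM in Nrf2-null libraries (n = 3; log2 fold change 0.68 ± 0.11, adjusted p = 0.0015). The lower genes were the ribonucleotide reductase subunits Rrm1 and Rrm2 and the endosomal iron reductase Steap3. Rrm2 also fell in miR-144/451-null against wild type (-1.23 ± 0.27, adjusted p = 0.0276), the single call of the list there, where 2.23% of all genes were lower. With a term for sex no gene was called lower in that comparison, so this call was lost. Gsr, glutathione reductase, spends NADPH to restore glutathione. It was the single gene of the list called for Nrf2 loss averaged over both states of the cluster (-0.72 ± 0.14, adjusted p = 0.0471, edgeR). There 0.588% of all genes passed. Calls over all genes in that contrast fell from 83 to 30 with a term for sex, a fit not given here for Gsr. Gsr averaged 49.6 ± 3.64 CPM in double-null (SD, n = 3), 73.1 ± 3.78 CPM in miR-144/451-null (n = 2), 42.3 ± 6.42 CPM in Nrf2-null (n = 3) and 78.3 ± 26.2 CPM in wild type libraries (n = 2). In double-null against wild type Akr1a1 was higher, and Gsr, Nqo1, Steap3 and Rrm2 were lower, where 8.26% of all genes passed as higher and 8.95% as lower.

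**Figure D4:**
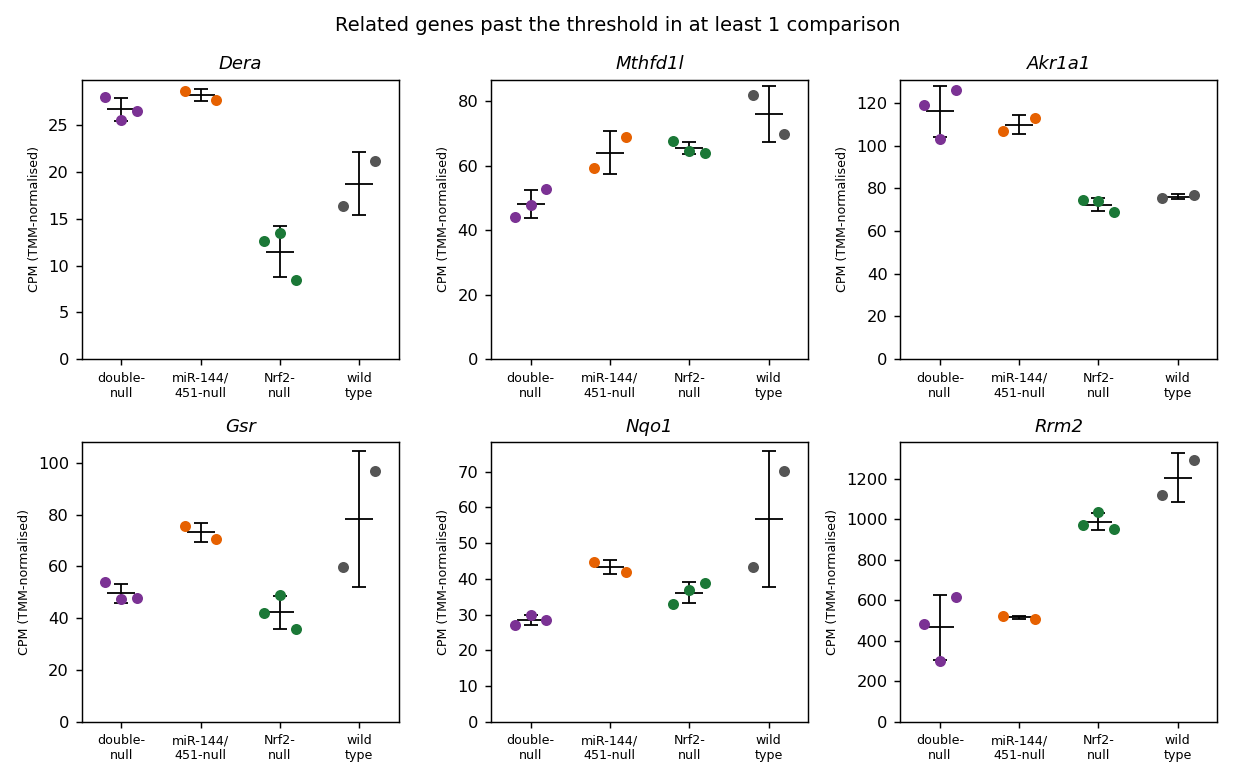
TMM-scaled CPM by genotype of 6 related genes that passed the threshold in at least 1 comparison, with 1 point for each library and the mean ± SD as bars (n = 3 double-null, 2 miR-144/451-null, 3 Nrf2-null and 2 wild type). Dera and Akr1a1 are higher and Rrm2 is lower in every cluster-null library than in any library that keeps the cluster, while Gsr is lowest in the Nrf2-null libraries on average.

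Markers of other blood cells differed between the same libraries, and in bulk RNA fewer cells of a type and less RNA per cell cannot be told apart. In double-null against Nrf2-null, where G6pdx, Pgd, Tkt and Taldo1 rose, 10 of 11 B cell markers passed as lower, with a summed level of 357 to 787 CPM in double-null and 978 to 1121 CPM in Nrf2-null libraries. The 12 macrophage markers summed to 183 to 486 CPM in double-null and 481 to 1261 CPM in Nrf2-null libraries, highest in Nrf2-null replicate 3, which had the least G6pdx and Pgd, and 0 of 12 passed in edgeR's test, with 7 at an unadjusted p under 0.05. The 11 neutrophil markers summed to 1207 to 1315 CPM in double-null and 201 to 1308 CPM in Nrf2-null libraries, lowest in that same replicate, and 0 passed, with 0 at an unadjusted p under 0.05. Of 12 erythroid markers 4 passed as lower, with sums of 114400 to 136900 CPM in double-null and 102600 to 135900 CPM in Nrf2-null libraries. Of the other lists, 1 of 10 T cell markers and 2 of 8 NK cell markers were lower, and of 8 tested megakaryocyte markers 1 was higher and 1 lower. Over all tested genes 14.4% passed as higher and 12.9% as lower in that comparison, so the T cell and megakaryocyte shares were no larger. The megakaryocyte list summed to 157 to 206 CPM in double-null and 76.5 to 111.5 CPM in Nrf2-null libraries, which did not overlap. Itga2b weighed most in this, with means of 128 CPM in double-null and 34.2 CPM in Nrf2-null libraries. Vwf (27.8 and 40.9 CPM) and Gp9 (5.50 and 12.5 CPM) went the other way. Of the 8 tested markers 5 had positive and 3 negative log2 fold changes, so the list did not move together. T cell markers summed to 16.5 to 68.3 CPM in double-null and 67.5 to 87.1 CPM in Nrf2-null libraries. No B cell, T cell, macrophage or neutrophil marker was at 0 in any library, while 1 NK cell and 2 megakaryocyte markers were at 0 in some library.

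In double-null against wild type, where Tkt was higher and Rpia lower, 10 of 11 B cell markers passed as lower, against 8.95% of all genes. The B cell sums were 357 to 787 CPM in double-null and 1286 to 1639 CPM in wild type libraries. Neutrophil markers there summed to 1207 to 1315 CPM in double-null and 466 to 527 CPM in wild type libraries, and 0 of 11 passed in edgeR's test, with 6 at an unadjusted p under 0.05. In Nrf2-null against wild type, where the log2 fold changes of the enzyme genes were negative, macrophage markers summed to 481 to 1261 CPM in Nrf2-null and 277 to 288 CPM in wild type libraries. None of those 12 passed in edgeR's test, 11 had positive values and 7 an unadjusted p under 0.05. B cell markers summed to 978 to 1121 CPM in Nrf2-null and 1286 to 1639 CPM in wild type libraries. All 11 had negative values, 0 passed and 1 had an unadjusted p under 0.05. In double-null against miR-144/451-null, the B cell sums were 357 to 787 and 723 to 981 CPM. There 0 of 11 passed, with 10 lower at an unadjusted p under 0.05. For miR-144/451-null against wild type, where Tkt was called, B cell markers summed to 723 to 981 CPM in miR-144/451-null and 1286 to 1639 CPM in wild type libraries, and 0 of 11 passed, with 7 at an unadjusted p under 0.05. All 12 erythroid markers had negative values there, with 8 at an unadjusted p under 0.05. Of them 1 passed as lower, where 2.23% of all genes did. Erythroid sums were 79850 to 91540 CPM in miR-144/451-null and 86680 to 121100 CPM in wild type libraries, which overlapped. The part of these markers in the results for the enzyme genes was not tested.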

How the data were processed

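The members and the lists of related and marker genes were chosen with earlier results of these data known. Per the labels, beads of a Miltenyi Biotec kit captured the cells, RNA came from Trizol, and a VAHTS Universal V6 kit gave the libraries. The authors deposited raw counts per Ensembl gene for all libraries in 1 table, and an FPKM file for each library. All 196970 FPKM values compared equalled the count divided by 1 length per gene and the library total to within 0.1%, and FPKM served for levels between genes only. HISAT2 2.1.0, TopHat2, Bowtie2 2.2.3, CASAVA and mm9 appear in the submitters' processing notes without their roles. How reads were counted, with which annotation and strand, is not given in the sources used here. Symbols (99.6% of identifiers) and UTRs came from GENCODE M21, and promoters and microRNAs from RefSeq, both of a later build than mm9, so gene coordinates of the files are not printed.

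Replicates of each genotype differed by more than sampling noise (chi-square per degree of freedom 17.3 to 30.4). Globin genes took 7.07% to 12.2% of counts, and TMM factors were 0.918 to 1.18. All 10 libraries entered 1 fit in R 4.3.3 with edgeR 4.0.16 (filterByExpr, TMM, robust quasi-likelihood test, two-sided, 6 residual degrees of freedom), with a coefficient per genotype. P-values were adjusted by Benjamini-Hochberg over 14110 genes, and a gene passed, or was called, at an adjusted p under 0.05. SE is the absolute log2 fold change divided by the square root of F. Log2 CPM for correlations used a prior count of 2. The fit was tested on simulated counts. Named genes were all 9 members, the genes of each related list that passed, and 3 genes most like each called member. The plan was up to 4 genes of a list per comparison, and 5 NADPH-using enzymes were named in double-null against wild type. Alternatives were DESeq2 1.42.0 and its size factors, no scaling, other filters, only the groups compared, a replicate block, a term for sex, globin genes removed and each library left out. Precision beyond counting error rests on 2 or 3 libraries per genotype.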

Additional observations from a re-analysis of the deposited data

How the results depend on the processing

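With 2 or 3 libraries per genotype, single libraries decided several calls. Leaving out 1 of the 10 libraries at a time gave 3 to 4 called members in double-null against Nrf2-null (4 with all libraries), 0 to 2 for miR-144/451-null over wild type (1), 0 to 2 in double-null against wild type (2) and 0 to 1 for Nrf2 loss averaged (0). In miR-144/451-null against wild type, DESeq2 size factors in edgeR, the fit of the 2 groups alone, the replicate block and the term for sex each gave 0 called members, and no filter gave 2 (Pgd and Tkt). In double-null against wild type, no scaling gave 1 (Rpia), the 2 groups alone 1 (Tkt), and the replicate block and the term for sex 0. No filter gave 1 in double-null against miR-144/451-null (Me1), 1 in Nrf2-null against wild type (G6pdx) and 5 for Nrf2 loss averaged (G6pdx, Pgd, Pgls, Rpia and Me1), where the DESeq2 test gave 2 (Rpia and Me1). The cause was not tested. The filter of 1 CPM in 5 libraries left no value for Me1.

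Replicate numbers did not pair the libraries when log2 CPM was compared after subtracting each gene's mean within its genotype. On these residual values, same-numbered libraries of different genotypes correlated at -0.111 to 0.287. By the same measure, 0 of 3 double-null libraries were most like the Nrf2-null library of their number. The replicate block kept the 4 calls in double-null against Nrf2-null. Under it the adjusted p of Tkt was 0.102 for miR-144/451-null over wild type and 0.0557 for double-null over wild type, where that of Rpia was 0.0685.

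Uncalled values near 0 changed sign. With the term for sex, Pgls was -0.12 in double-null against Nrf2-null, Rpia 0.15 for miR-144/451-null over wild type and Rpe 0.097 in Nrf2-null against wild type, and the interaction was -0.63 for Pgls, -0.26 for Rpia, -0.20 for Rpe and 0.70 for Me1. In double-null against Nrf2-null Rpia was 0.012 without scaling, 0.0092 without the filter and 0.011 without globin genes. In miR-144/451-null against wild type Pgls was -0.015 with DESeq2 size factors and with DESeq2, and -0.021 with the replicate block. Without scaling Rpe was -0.083 in double-null against wild type, and the interaction was -0.070 for Pgls and -0.080 for Rpe, while no filter gave -0.017 for Rpe. No scaling moved the median of all genes to 0.15 for miR-144/451-null over wild type, -0.24 in double-null against miR-144/451-null, -0.12 in Nrf2-null against wild type, -0.11 in double-null against wild type and -0.18 for Nrf2 loss averaged, where it was within 0.03 of 0 with TMM. It called 497 genes higher and 247 lower in miR-144/451-null against wild type, against 338 and 315 with TMM, 803 and 1433 in double-null against wild type (1165 and 1263), and 41 and 68 for Nrf2 loss averaged (52 and 31). Over all genes, miR-144/451-null over wild type had 653 calls, against 1254 without the filter, 1071 with DESeq2, 152 with the 2 groups alone, 429 with the replicate block and 1 with the term for sex, and double-null against wild type 2428, against 560 with the term for sex. Nrf2 loss averaged had 83 calls, against 1416 without the filter, 545 with DESeq2, 43 with the replicate block and 30 with the term for sex. Double-null against miR-144/451-null had 9, Nrf2-null against wild type 27 and the interaction 9, against 743, 716 and 232 without the filter and 175, 134 and 24 with DESeq2. Leaving out single libraries gave 40 calls (without wild type replicate 3) to 691 for miR-144/451-null over wild type, with 200 when wild type replicate 1 was dropped, and 81, 331 and 390 when miR-144/451-null replicate 1, its replicate 3 or Nrf2-null replicate 1 was dropped. Double-null against wild type had 775 without wild type replicate 3, 964 without wild type replicate 1 and 1573 without double-null replicate 1, and double-null against Nrf2-null 2646 to 3929. Nrf2 loss averaged had 21 to 356, double-null against miR-144/451-null 4 to 78, Nrf2-null against wild type 11 to 32 and the interaction 3 to 12.

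Ranges with single libraries left out crossed 0 for 20 uncalled values. In double-null against Nrf2-null they were -0.093 to 0.19 (Pgls), -0.086 to 0.077 (Rpia), -0.0068 to 0.21 (Rpe) and -0.076 to 0.16 (Idh1). In miR-144/451-null against wild type they were -0.37 to 0.33 (Pgls), -0.039 to 0.60 (Taldo1), -0.38 to 0.065 (Rpia) and -0.035 to 0.18 (Rpe). In double-null against miR-144/451-null they were -0.13 to 0.025 (Tkt), -0.25 to 0.058 (Taldo1) and -0.11 to 0.059 (Rpe). In double-null against wild type they were -0.14 to 0.35 (G6pdx), -0.12 to 0.50 (Taldo1) and -0.081 to 0.16 (Rpe). Rpe ranged from -0.19 to 0.077 in Nrf2-null against wild type and from -0.12 to 0.026 for Nrf2 loss averaged. The interaction ranged from -0.25 to 0.43 (Pgls), -0.062 to 0.37 (Rpia), -0.10 to 0.15 (Rpe) and -0.87 to 0.74 (Me1).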
